A study of Mus musculus with 12 samples.

Results

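The data examined here were the baseline transcriptome of palate mesenchyme cells, the 3 scramble -PDGF-AA samples among the 12 samples of the series. These are iMEPM cells, an immortalized line of mouse embryonic palatal mesenchyme that, according to the study's methods, came from a male Cdkn2a-/- embryo. They carried a lentivirus with a scramble shRNA, were selected with puromycin, and were sorted as a pool for high GFP, and the replicates were 3 independent biological replicates of this 1 line, so that their spread holds no difference between embryos. The other 9 samples were scramble cells treated with PDGF-AA (10 ng/mL for 1 hr) and cells with an shRNA against Srsf3, without and with the ligand, and all 12 samples share the line and so the Cdkn2a-/- genotype given for its source. The samples were chosen by their labels, no contrast was tested, and the whole table of 51490 genes was examined for which genes were expressed and which were not detected.

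The palatal mesenchyme arises mostly from cranial neural crest cells, which leave the neural tube, lose their early crest program, and settle in the facial processes. These cells secrete a collagen-rich matrix, respond to growth factors through receptor tyrosine kinases (RTKs) such as the PDGF receptors, and later give rise to bone, cartilage, tendon, and connective tissue. Transcription factors of the Prrx, Twist, Msx, Osr, and Lhx families act in this mesenchyme and in that of other sites such as the limb, and most cranial neural crest of the face does not express Hox genes.

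The gene counts of each library summed to 39174723, 43948763, and 59229106 in replicates 1, 2, and 3, which is the depth behind the values given here. Levels are given as CPM (counts scaled to the library total), in the order of replicates 1, 2, and 3. CPM describes each gene by itself, and orders and ratios between genes are given as TPM, in which counts are divided by the length of the gene's canonical transcript before scaling, and TPM values are means ± SD of the replicates (n = 3). A gene was termed expressed when it had at least 1 CPM in every replicate, at the floor when it had at most 3 counts in every replicate, and low otherwise. By this rule, 11944 genes (23.2%) were expressed, 5540 were low, and 34006 were at the floor, of which 28941 had no count in any of the replicates. Among 20874 protein-coding genes, 11271 (54.0%) were expressed and 7045 were at the floor, whereas 263 of 9267 lncRNA genes were expressed. A floor of 3 counts was 0.0766, 0.0683, and 0.0507 CPM in replicates 1, 2, and 3. This is an approximate upper limit for a gene with a count of 0, for counting error only. Genes at the floor that had counts can lie above it.

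The cells expressed the 3 genes that mark this tissue. Prrx1, a homeobox factor of limb and facial mesenchyme (chr1:163041844-163142033, GRCm39), was at 517, 520.4, and 501 CPM. Twist1, a bHLH factor required in cranial mesenchyme (chr12:34007645-34009828), was at 60.8, 64.3, and 66.4 CPM. Pdgfra, which encodes the receptor for PDGF-AA (chr5:75311994-75358876), was at 70.2, 68.6, and 82.5 CPM. The replicates of Prrx1 and Twist1 lay close together, whereas Pdgfra was highest in replicate 3. Per length, Prrx1 led with 228 ± 2.82 TPM, followed by Twist1 with 102 ± 4.97 TPM and Pdgfra with 29.6 ± 3.37 TPM, and the replicates of the 3 genes did not overlap. With the length of all annotated exons of a gene in place of the canonical transcript, Twist1 was above Prrx1, with a ratio of Prrx1 to Twist1 of 0.804 ± 0.0487, and Pdgfra was again the lowest. A list of 12 mesenchyme markers holds Prrx1, Twist1, and Pdgfra themselves, so that it is not independent of them. All 12 genes of this list were expressed, from Col1a1, the main chain of type I collagen, with 8102 ± 279.6 TPM, to Dcn, the proteoglycan decorin, with 8.29 ± 0.132 TPM. The 20 protein-coding genes with the highest TPM included Eef1a1, a translation factor, with 13389.7 ± 1346 TPM, 7 genes of the mitochondrial genome, the cytoskeletal genes Actb, Actg1, Vim, Tpm1, and Acta2, and the matrix genes Col1a1, Col1a2, and Sparc. The plot of ranked levels places these genes among the 11271 expressed protein-coding genes.

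**Figure D1:**
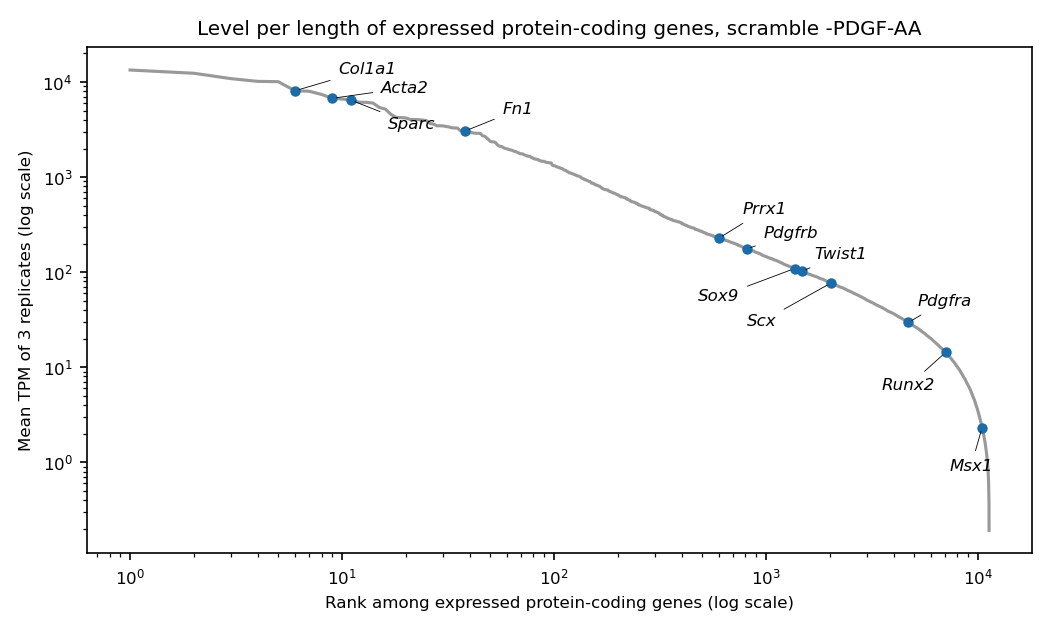
Mean TPM of 3 scramble -PDGF-AA replicates (vertical axis, log scale) against the rank of the gene among the expressed protein-coding genes (horizontal axis, log scale), with 12 genes marked as points. Col1a1, Acta2, Sparc, and Fn1 sit in the upper part at 3053 TPM (Fn1) to 8102 TPM (Col1a1), Prrx1, Pdgfrb, Sox9, and Twist1 between 102 and 228 TPM, and Msx1 much lower at 2.32 TPM.

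The promoters of the 3 marker genes differ in sequence, as the 100 bases before each annotated start show (RefSeq, GRCm38.p6, which is not the build of the counts). Capitals mark CG steps, the substrate of DNA methylation in mammals, and the letters TATAA, the core of the TATA box at which the transcription machinery can assemble.
Pdgfra (chr5:75152151-75152250, + strand): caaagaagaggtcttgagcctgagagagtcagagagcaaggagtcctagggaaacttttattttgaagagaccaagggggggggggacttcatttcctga
Prrx1 (chr1:163313651-163313750, - strand): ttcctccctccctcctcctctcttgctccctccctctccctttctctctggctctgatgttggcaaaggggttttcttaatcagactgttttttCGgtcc
Twist1 (chr12:33957571-33957670, + strand): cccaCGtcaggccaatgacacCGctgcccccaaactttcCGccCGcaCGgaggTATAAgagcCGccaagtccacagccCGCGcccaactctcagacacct
The stretch of Pdgfra holds 0 CG steps and that of Prrx1 holds 1, whereas that of Twist1 holds 8 together with TATAA, which begins 47 bases before the start. This lies outside the window of 20 to 40 bases before the start used for the shares of TATAA given below, so that Twist1 is not counted there. In the full 300 bases, Pdgfra had 5 CG steps, Prrx1 had 6, and Twist1 had 27, against a median of 21 over the promoters of expressed genes and of 4 over those of genes at the floor. The annotated promoters of Pdgfra and Prrx1 thus had fewer CG steps than the lower quartile of expressed genes, which was 13. Counts per gene do not show from which start the transcripts came.

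Of 50 transcription factors known from palatal mesenchyme, 39 (78.0%, against 54.0% of all protein-coding genes) were expressed, 7 were low, and 4 were at the floor. Among the highest per length, after Prrx1, was Snai1, a repressor of epithelial genes, with 215 ± 9.24 TPM, and with the length of all exons Snai1 was above Prrx1. Osr1, an odd-skipped factor, came 3rd in this list with 114 ± 5.09 TPM, and its relative Osr2, which is needed for palatal shelf growth, had 2.402 ± 0.395 TPM. Osr1 exceeded Osr2 in each replicate, with a ratio of 48.2 ± 6.76 (SD, n = 3), or 14.1 ± 1.98 when the length of all annotated exons was used. The rank of Osr1 depended on this choice, since it had 47.8 TPM with the length of all exons and was then below Twist1 and Sox9. Prrx1 exceeded its paralog Prrx2 by 2.799 ± 0.191-fold (SD, n = 3) and Twist1 exceeded Twist2 by 2.24 ± 0.0767-fold on the TPM scale, or by 1.12 ± 0.0764-fold and 9.35 ± 0.3197-fold with the length of all exons.

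Several factors that act in the facial processes were expressed. The LIM homeobox factors Lhx6 and Lhx8, which mark neural crest of the maxillary and mandibular processes, were among 3 expressed members of 12 LIM homeobox genes, with 23.4, 24.1, and 22.98 and 20.9, 21.8, and 27.3 CPM. The forkhead factors Foxf1 and Foxf2, targets of Hedgehog signaling in the palate, had 27.3, 28.3, and 27.7 and 18.8, 18.1, and 19.5 CPM. The paired box factors Pax3 and Pax9 were the only 2 expressed members of 9 Pax genes, with 18.9, 22.1, and 20.8 and 16.8, 18.2, and 17.98 CPM. The replicates of these genes lay within a narrow range except for Lhx8, which was highest in replicate 3.

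Other palatal regulators were barely detected or absent. Msx1, a homeobox factor of the anterior palate whose loss causes cleft palate in mice, was at 1.74, 1.52, and 1.84 CPM, just above the minimum in every replicate. Shox2, another anterior factor, had 4.47, 3.57, and 3.56 CPM and Msx2 had 2.55, 2.503, and 2.38 CPM. Hand1, Hand2, and Tbx22 had 0 counts in every replicate. Hand2 patterns the lower jaw and Tbx22 is the T-box gene of X-linked cleft palate. The posterior factor Meox2 had 2, 1, and 4 counts, close to the floor. Barx1 and Mn1, which are also posterior, were expressed with 22.1, 21.8, and 18.6 and 109.9, 112, and 132 CPM. Of 5 genes of the anterior palate 4 were expressed, and of 4 genes of the posterior palate 2 were, so that members of both regions were present in the same samples. The plot of the named factors shows this gap.

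**Figure D2:**
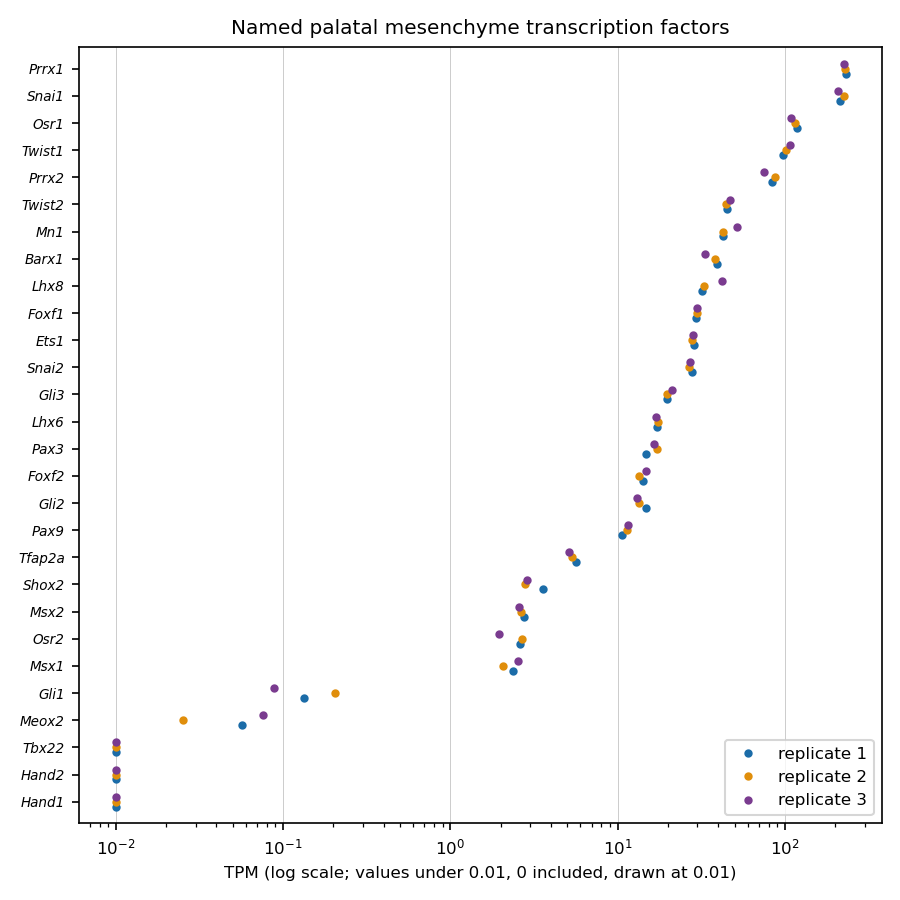
TPM (horizontal axis, log scale) of the palatal mesenchyme transcription factors named in the text, with 1 point per replicate of the scramble -PDGF-AA samples and values under 0.01 TPM drawn at 0.01. The expressed factors have means between 2.32 TPM for Msx1 and 228 TPM for Prrx1, and Hand1, Hand2, and Tbx22 sit at the left edge with 0 counts.

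Promoters rich and poor in CG steps occurred among both present and absent genes. Pdgfra and Prrx1, printed above, were expressed and had few CG steps. The stretches of Msx1, which was also expressed, and of Hand2 and Tbx22, which were not detected, are printed with the same capitals.
Msx1 (chr5:37824586-37824685, - strand): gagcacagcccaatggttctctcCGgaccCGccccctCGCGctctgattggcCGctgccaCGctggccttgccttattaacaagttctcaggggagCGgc
Hand2 (chr8:57320883-57320982, + strand): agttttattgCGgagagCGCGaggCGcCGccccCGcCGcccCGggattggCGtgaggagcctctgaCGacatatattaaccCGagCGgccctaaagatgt
Tbx22 (chrX:107667864-107667963, + strand, the first of 3 annotated starts): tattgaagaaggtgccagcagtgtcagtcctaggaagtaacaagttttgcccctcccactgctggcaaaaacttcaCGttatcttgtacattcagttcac
The stretch of Hand2 holds 12 CG steps, more than the 7 of Msx1, and the 300 bases hold 17 and 29. That of Tbx22 holds 1, as does the full window.

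Over all genes, CG steps and the TATAA letters were distributed differently by class. Promoters were available for 15220 of the protein-coding genes, and all of the 18803 promoters of these genes were counted. The median number of CG steps in 300 bases was 21 for expressed, 9 for low, and 4 for floor genes, with quartiles of 13 and 29, 4 and 20, and 2 and 8. At least 10 CG steps were present in 82.1% of the promoters of expressed genes, in 22.3% of those of floor genes, and in 62.2% of all. TATAA on the strand of the gene, beginning 20 to 40 bases before the start, was found in 1.65% of the promoters of expressed genes and 9.64% of those of floor genes, against 4.14% of all. On the other strand, in which it reads TTATA, the shares were 0.753%, 2.87%, and 1.45%. Among expressed genes the share with TATAA was 2.02% at a mean of 1 to 10 CPM, 1.17% at 10 to 100 CPM, 2.58% at 100 to 1000 CPM, and 6.82% (6 of 88 promoters) at 1000 CPM or more. Keratin genes, of which 41 of 50 were at the floor, had TATAA in 17 of 36 promoters. These are counts of letters and were not tested.

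**Figure D3:**
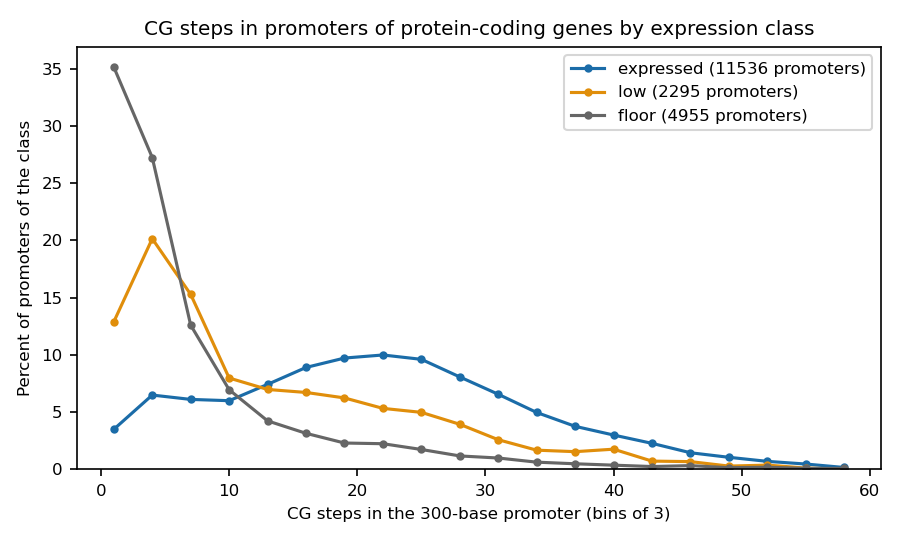
Percent of promoters of each expression class (vertical axis) by the number of CG steps in the 300-base promoter in bins of 3 (horizontal axis), for protein-coding genes. Promoters of floor genes pile up at few CG steps with a median of 4, and those of expressed genes spread around a median of 21.

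Across 343 transcription factors, taken from symbol families and the lists, 167 (48.7%) were expressed, 44 were low, and 132 (38.5%) were at the floor. These shares were near those of all protein-coding genes, of which 54.0% were expressed and 33.8% were at the floor. The highest per length were Nfix, a nuclear factor I protein, with 363 ± 37.1 TPM and the forkhead factor Foxp1 with 348 ± 14.2 TPM. Jund, an AP-1 subunit, had 282 ± 12.7 TPM, and the Kruppel-like factor Klf4 had 258 ± 0.9001 TPM. The replicates of Nfix and Foxp1 overlapped, those of Jund and Klf4 did not, and 21 of the 30 neighbouring pairs among the highest 31 overlapped. The place of Foxp1 rested on the short transcript that the annotation takes as canonical, since it came 39th of these factors when the length of all exons was used, and 7 of the highest 10 were shared between both lengths. All members of the Nfi (4), Runx (3), Tead (4), Meis and Pbx (9), and Smad (8) families were expressed.

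Tbx15, a T-box factor of mesenchyme, had 132, 134, and 136 CPM, and Irx1, an Iroquois factor, had 56.9, 62.6, and 61.8 CPM. Both were well above the minimum in every replicate. Nkx6-1 was the only expressed member of 14 Nkx genes, with 3.45, 3.14, and 2.09 CPM.

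Hox genes were close to absent. Of 39 Hox genes, which specify position along the trunk, 32 were at the floor, 25 of these had no count, and 6 were low. In contrast, the TALE factors, cofactors of Hox proteins, were all expressed, including Meis1 with 38.6 ± 3.52 TPM. Of the 31-base sequences of Hoxd4 and Hoxd3, 48.7% and 37.7% occurred in transcripts of another gene, so that the levels of these genes are uncertain.

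The early neural crest program was not detected in full. Sox10 and Foxd3, which define migratory crest, had 0 counts in every replicate, and Zic1 had 0, 1, and 0 counts. Sox9, Ets1, Snai2, Pax3, and Tfap2a, which are shared by crest and mesenchyme, were expressed. Sox9 had 185, 174, and 159.7 CPM, highest in replicate 1 and lowest in replicate 3. Tfap2a had 7.199, 6.94, and 6.47 CPM, with replicates close to each other. Ngfr, a receptor of crest stem cells, had 0.332, 0.182, and 0.304 CPM and was low.

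All 7 PDGF ligand and receptor genes were expressed. Pdgfrb, the receptor for PDGF-BB, had 349, 341, and 387 CPM and was highest in replicate 3, as was Pdgfra. Per length, Pdgfrb had 175 ± 13.9 TPM and exceeded Pdgfra in every replicate, with ratios of 6.07, 6.06, and 5.72 in replicates 1, 2, and 3, or 7.42 ± 0.2496 on average (SD, n = 3) with the length of all exons. Pdgfrl, which encodes a receptor-like protein, had 85.1 ± 6.14 TPM. Among the ligands, Pdgfa, whose product binds PDGFRα, had 61.6 ± 3.83 TPM, and Pdgfc, another ligand of this receptor, had 50.5 ± 2.02 TPM. Pdgfb and Pdgfd were lower, with 6.39 ± 0.809 and 5.404 ± 0.409 TPM. Pdgfa, Pdgfc, Pdgfb, and Pdgfd were thus all transcribed by the unstimulated cells themselves. None of the 6 neighbouring pairs in the order of the 7 genes overlapped between replicates. With the length of all exons, the ratio of Pdgfa to Pdgfc was 0.9198 ± 0.0852, within 1 SD of equal levels, so that the order of these ligands depended on the length used.

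Of 58 RTK genes, 35 (60.3%) were expressed, 11 were low, and 12 (20.7%) were at the floor, against 54.0% and 33.8% of all protein-coding genes. Ryk, a Wnt receptor, led with 292 ± 1.14 TPM, followed by Axl, a receptor for Gas6, with 237 ± 12.03 TPM, then Pdgfrb. The collagen receptor Ddr2 had 159 ± 5.005 TPM and Fgfr1 had 147 ± 3.44 TPM. Ryk came 7th with 107 TPM when the length of all exons was used, and Ddr2 then came first. Pdgfra was the 18th of the RTKs, and its replicates overlapped those of its neighbours Epha4 and Met. Fgfr1 exceeded Fgfr2 by 7.31 ± 0.205-fold.

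Several RTKs of other lineages were not detected. Kit, which marks melanocyte and hematopoietic precursors, Flt3, Tie1, and Ros1 had 0 counts in every replicate. Erbb4 had 0, 1, and 0 counts and Erbb3, a receptor of glial precursors, had 20, 4, and 8 counts, highest in replicate 1. Tek, the endothelial angiopoietin receptor, was an exception with 31.7, 29.6, and 30.2 CPM, and Flt1, a VEGF receptor, had 112, 101, and 104 CPM. The replicates of both lay close together. Kdr, the main endothelial VEGF receptor, was low with 0.179, 0.205, and 0.371 CPM.

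Receptors of the other palatal signaling pathways were present. Of 14 TGF-beta and BMP receptor genes 12 were expressed, led by Tgfbr2 with 130.4 ± 2.305 TPM and Bmpr1a with 79.5 ± 2.301 TPM. Of 10 frizzled genes, the receptors for Wnt ligands, 8 were expressed, with Fzd7 at 198 ± 12.3 TPM and Fzd2 at 133 ± 0.557 TPM, an order that was reversed with the length of all exons, with a ratio of 0.7496 ± 0.0442. The Wnt co-receptors Lrp6 and Lrp5 had 91.4 ± 5.11 and 68.9 ± 1.88 TPM. Smo, the transducer of the Hedgehog pathway, had 199, 194, and 186 CPM, and its inhibitor Ptch1, which is also a target, had 13.1, 14.8, and 15.6 CPM. Gli3 and Gli2, the transcription factors of the pathway, had 66.5, 67.4, and 70.5 and 37.04, 34.2, and 32.6 CPM. Gli1, a target that rises when the pathway is active, had 0.204, 0.319, and 0.135 CPM and was low.

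The ligands followed another pattern. Of 25 ligands known from the palate, 17 were expressed, and Shh, Bmp7, and Wnt9b, which the palatal or facial epithelium produces, had 0 counts in every replicate. Fgf7, a mesenchymal ligand for epithelial Fgfr2, had 347, 355, and 325 CPM, and Fgf10, which binds the same receptor, had 2.48, 2.32, and 2.09 CPM. On the TPM scale Fgf7 exceeded Fgf10 by 224 ± 12.3-fold, or 168-fold with the length of all exons. Bmp4 had 67.7, 67.4, and 62.3 CPM and Bmp2 had 0.332, 0.159, and 0.152 CPM. Tgfb3, which is required for palatal fusion, had 882, 832, and 765 CPM and Tgfb2 had 147, 141, and 114 CPM, both lowest in replicate 3. Igf2 had 571, 589, and 449 CPM, and 57.2% of its 31-base sequences occurred in transcripts of another gene. Among 19 Wnt genes, 9 were expressed, with Wnt16 at 43.7 ± 3.32 TPM and Wnt5a at 21.3 ± 1.17 TPM, and the ratio of Wnt16 to Wnt5a was 0.873 ± 0.0211 with the length of all exons.

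Genes of the extracellular matrix were among the most abundant. Of 135 collagens, laminins, glycoproteins, and proteoglycans, 105 (77.8%, against 54.0% of all protein-coding genes) were expressed. The 135 genes together made up 10.9%, 10.7%, and 11.2% of all counts in replicates 1, 2, and 3. Collagens alone made up 5.58%, 5.48%, and 5.87%. Replicate 3 had the highest share in both cases. Of 44 collagen genes 30 were expressed, and Col1a1 (chr11:94827050-94843868) was at 18039, 17847, and 18655 CPM. Col1a2, which encodes the other chain of type I collagen, had 12011, 11839, and 13492 CPM, highest in replicate 3. The ratio of Col1a1 to Col1a2 in TPM was 1.32 ± 0.0637 with the canonical lengths and 2.82 ± 0.136 with the length of all exons.

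The fibrillar and pericellular collagens followed. Col3a1 had 2380.4 ± 77.7 TPM, Col5a2 1300.0 ± 34.96 TPM, Col12a1 1110.4 ± 117 TPM, and Col6a1 911 ± 8.75 TPM. Col4a1 and Col4a2, the paired chains of basement membrane collagen IV, had 617 ± 13.6 and 619 ± 15.2 TPM, and their ratio was 0.997 ± 0.0248, so that they were at a similar level in each replicate. The cartilage collagen Col2a1 had 131, 114, and 132 CPM and was expressed. The hypertrophic cartilage collagen Col10a1 was low with 0.536, 0.478, and 0.5403 CPM, and Col9a1 had 1, 0, and 0 counts. The collagen maturation genes were expressed in 15 of 17 cases, led by Lox, a crosslinking oxidase, with 2699 ± 66.7 TPM and Serpinh1, a collagen chaperone, with 1532 ± 75.8 TPM.

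Among the glycoproteins 42 of 48 were expressed. Sparc, a collagen-binding protein, had 5576, 5832, and 5546 CPM and was the highest per length with 6465 ± 102 TPM. Fn1 (fibronectin) had 9809, 9076, and 10259 CPM and Postn (periostin) had 2823, 2886, and 3259 CPM, both highest in replicate 3. Ccn2, which encodes connective tissue growth factor, had 3703, 3687, and 2819 CPM and was lowest in replicate 3. Eln (elastin) had only 11.6 ± 0.511 TPM, whereas Fbn1 and Fbn2, the fibrillins on which elastin assembles, had 211 ± 25.5 and 198 ± 21.8 TPM. Vtn (vitronectin) had 0 counts.

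The small leucine-rich proteoglycans were expressed unequally. Bgn (biglycan) had 3663, 3732, and 3433 CPM and Aspn (asporin) had 674, 709, and 699 CPM. Dcn, which is abundant in most fibroblasts, had 19.2, 19.7, and 18.6 CPM. Replicates of each gene lay close together, and the TPM of Bgn exceeded that of Dcn by 475 ± 8.599-fold, or 363-fold with the length of all exons. Lum (lumican) had 1, 0, and 10 counts and Kera (keratocan) had 0. Acan, the proteoglycan of cartilage, had 3, 5, and 17 counts and Ncan, of the nervous system, had 0. Vcan (versican), of embryonic mesenchyme, was expressed with 84.3, 82.4, and 98.03 CPM.

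Genes that bind and remodel the matrix were also described. Of 26 integrins 17 were expressed, led by Itgb1, the common beta chain, with 746 ± 21.1 TPM, Itgb5 with 349 ± 20.2 TPM, and the fibronectin receptor chain Itga5 with 223 ± 3.19 TPM, and Itga5 was above Itgb5 with the length of all exons, with a ratio of Itgb5 to Itga5 of 0.899 ± 0.0634. Only 1 of the 11 neighbouring pairs among the highest 12 overlapped. The collagen receptor chain Itga11 had 165 ± 4.62 TPM, whereas Itgad, of leukocytes, had 0 counts. Of 23 matrix metalloproteinases 9 were expressed, with Mmp14 at 405 ± 15.2 TPM and Mmp2, which it activates, at 362 ± 22.4 TPM, and their ratio was 0.579 ± 0.0138 with the length of all exons. The inhibitor Timp3 had 1542 ± 96.9 TPM. Timp2 had 61.7, 56.04, and 113 CPM and was much higher in replicate 3 than in the other two replicates, and its mean was 58.9 CPM without replicate 3.

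**Figure D4:**
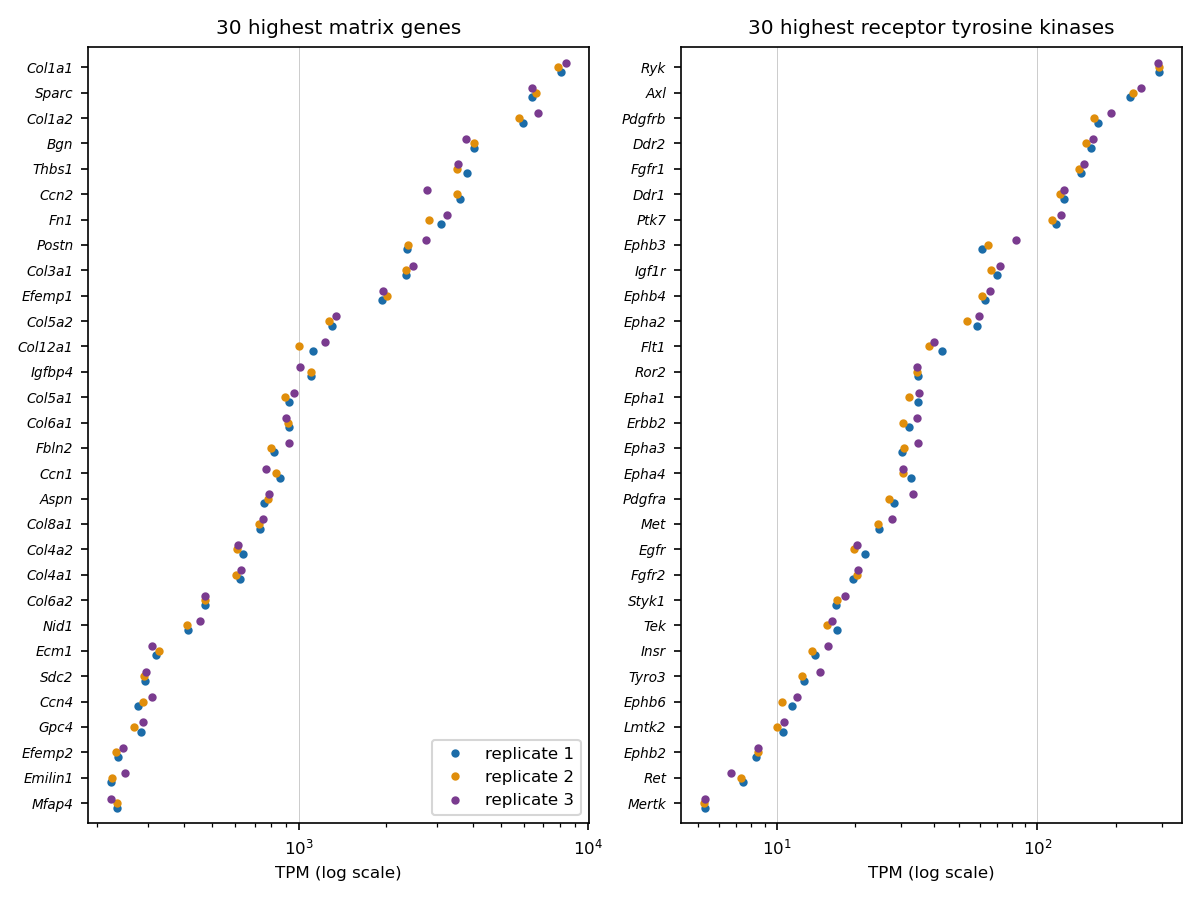
TPM (horizontal axes, log scale) of the 30 highest of 135 matrix genes (left) and the 30 highest of 58 RTK genes (right), with 1 point per replicate of the scramble -PDGF-AA samples. Matrix genes reach 8102 TPM for Col1a1, the highest RTK is Ryk at 292 TPM, and Pdgfra lies 18th of the RTKs.

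Markers of 13 other lineages were then examined, of which 35 of 126 (27.8%) were expressed and 53 (42.1%) were at the floor. Of all protein-coding genes, 54.0% were expressed and 33.8% were at the floor. None of 7 pluripotency genes was expressed, with Pou5f1 and Sox2 at 0 counts and Nanog at 20, 10, and 38 counts. Of 12 hematopoietic genes only Cd68, a lysosomal protein, was expressed, at 1.43, 1.46, and 1.47 CPM, and Spi1, Cd3e, and both globin genes had 0 counts. Of 14 epithelial genes 7 were at the floor. Krt5 and Krt14, keratins of the basal layer, had 1, 0, and 0 and 3, 0, and 2 counts, and Esrp1, an epithelial splicing factor, had 0. Cdh1, the epithelial cadherin, had 2.297, 2.37, and 2.397 CPM. Cdh2 and Cdh11, the mesenchymal cadherins, had 224, 219.6, and 210.2 and 907, 924, and 952 CPM. Trp63, an epithelial factor, had 2.195, 3.46, and 3.02 CPM. Summed over the list, the epithelial markers had between 7.99 and 9.31 CPM, and the endothelial markers had between 34.8 and 36.02 CPM, most of it from Tek. The sum of the neuronal markers was higher, with 250, 246, and 279 CPM in replicates 1, 2, and 3, and 2 of these 10 genes were expressed. Of 8 Schwann and glial markers 2 were expressed, and of 6 melanocyte markers 1 was.

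The lineages that mesenchyme can enter were represented in part. Of 11 smooth muscle and pericyte genes 8 were expressed, with Acta2 (smooth muscle actin) at 7350.2, 7449, and 6584 CPM, Tagln (transgelin) at 1219, 1247, and 1256 CPM, and Cnn1 (calponin) at 130.5, 133, and 119.6 CPM. Acta2 was the 9th of all protein-coding genes in TPM and was lowest in replicate 3. Myh11, the myosin of mature smooth muscle, had 4.65, 4.41, and 5.01 CPM, and Des (desmin) had 0.102, 0.205, and 0.135 CPM.

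Of the skeletal lineages, 5 of 12 osteoblast markers, 4 of 12 chondrocyte markers, and 4 of 6 tendon markers were expressed, and no tendon marker was at the floor. Runx2, the osteoblast factor, had 34.28, 35.86, and 35.03 CPM and was expressed. Sp7, the next factor in this program, had 0.664, 0.455, and 0.608 CPM and was low. Alpl (alkaline phosphatase) had 0.459, 0.364, and 0.203 CPM and Ibsp (bone sialoprotein) had 0 counts. Bglap (osteocalcin) had 0, 0, and 1 counts, and 62.9% of its 31-base sequences occurred in other genes. In the chondrocyte list, Sox9, Col2a1, Col11a2 (another cartilage collagen), and Comp (a cartilage matrix protein) were expressed, and Sox5 and Sox6, the partners of Sox9, were low with 0.536, 0.546, and 0.777 and 0.408, 0.296, and 0.287 CPM. In the tendon list, Scx (scleraxis) had 39.2, 39.5, and 40.5 CPM and Tnmd (tenomodulin) had 0.893, 0.796, and 0.371 CPM, and Mkx, Egr1, and Fmod (fibromodulin) were expressed as well. Pparg, the adipocyte factor, had 6.13, 6.71, and 7.395 CPM and Adipoq had 0 counts. Myod1, Myf5, and Pax7, of skeletal muscle, had 0 counts, and Acta1 (skeletal actin) had 23.7, 24.6, and 24.3 CPM.

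**Figure D5:**
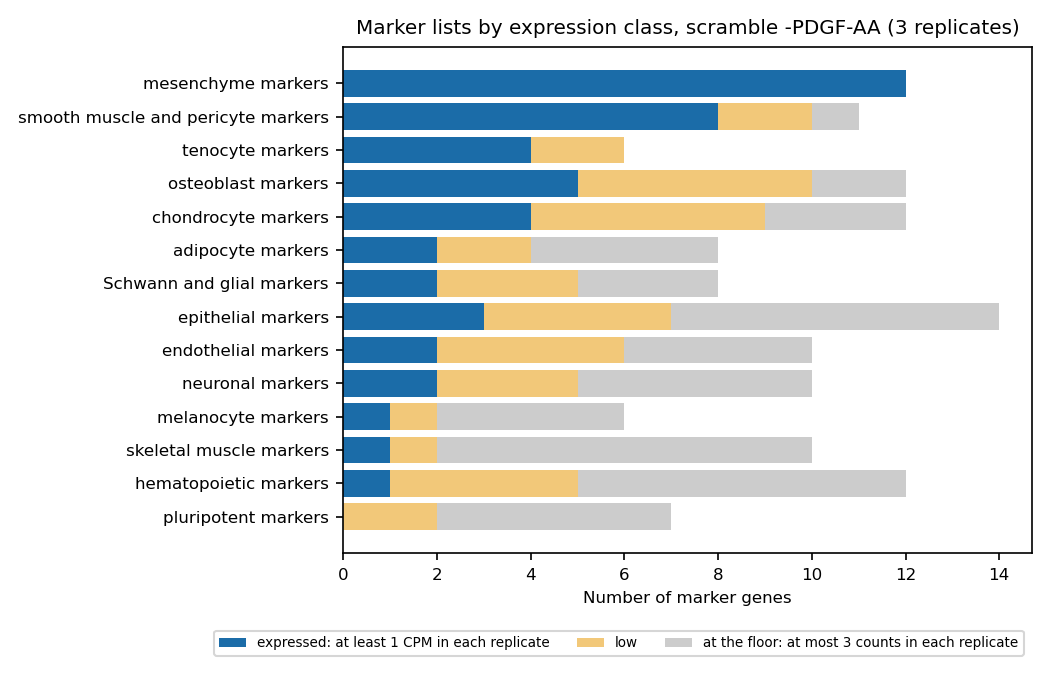
Number of marker genes (horizontal axis) that were expressed, low, or at the floor in the 3 scramble -PDGF-AA replicates, for mesenchyme and 13 other lineages (vertical axis). All 12 mesenchyme markers, which include Pdgfra, Prrx1, and Twist1, were expressed. So were 8 of 11 smooth muscle and pericyte markers, 5 of 12 osteoblast markers, and none of 7 pluripotency markers.

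The state of the cells was described by 2 further lists. Of 19 proliferation genes 18 were expressed, including Mki67 with 124, 112, and 137 CPM and Top2a with 148, 148, and 175 CPM, both highest in replicate 3. Bub1, a mitotic checkpoint kinase, was the exception with 0.204, 0.2503, and 0.169 CPM, and in all 12 samples of the series it was below 0.3 CPM. Its relative Bub1b, which was added after these values were seen, had 26.3, 27.8, and 28.1 CPM, and none of the 31-base sequences of Bub1 occurred in other genes. All 19 immediate early genes, which respond to growth factors, were expressed in the unstimulated cells. The methods describe serum starvation before treatment with PDGF-AA, but do not state it for the RNA of these samples, so that the serum conditions behind the immediate early and proliferation genes are not known here. Klf4 and Myc had 295, 301, and 292 and 197, 196, and 192 CPM. Fos and Egr1 had 11.7, 10.4, and 11.7 and 30.1, 31.2, and 26.3 CPM. Nr4a1 had 131, 126, and 85.3 CPM and was lowest in replicate 3.

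Genes of the source embryo were checked as well. Cdkn2a, for which the methods describe the source embryo as -/-, had 138, 133, and 182 counts, or 3.52, 3.03, and 3.07 CPM, and was thus expressed by the rule used here. It was between 3.03 and 3.57 CPM in all 12 samples, and counts per gene do not show from which exons they came. Cdkn2b, its neighbour, had 53.6, 58.9, and 57.1 CPM. Trp53 and its target Cdkn1a, which act in the same arm, had 159, 159, and 153 and 171, 180.1, and 180.1 CPM. Xist, the RNA that coats the inactive X chromosome (chrX:102503972-102537573), had 406, 389, and 452 CPM. The Y-linked genes Ddx3y, Eif2s3y, Kdm5d, and Uty were also expressed, with 19.2, 18.6, and 19.2 CPM for Ddx3y (chrY:1260715-1286663) and 3.32, 2.53, and 3.82 CPM for Uty, in a line that the methods describe as male. Xist and the Y-linked genes were thus detected together in every replicate. Of the 31-base sequences, 7.52% of Ddx3y, 8.70% of Kdm5d, 3.68% of Uty, and 0.96% of Xist occurred in transcripts of another gene. On the TPM scale, the X-linked partners exceeded the Y-linked genes by 25.05 ± 0.907-fold for Ddx3x, 32.7 ± 3.04-fold for Eif2s3x, 12.5 ± 0.101-fold for Kdm5c, and 5.55 ± 1.24-fold for Kdm6a. With the length of all exons these ratios were 43.9 ± 1.59, 71.8 ± 6.67, 18.3 ± 0.148, and 7.18 ± 1.598. These partners were chosen after the values of the Y-linked genes were seen. What brings these genes together was not tested.

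Replicates were similar but replicate 3 stood apart. Among 8906 expressed genes with a mean of at least 10 CPM, the median SD of log2 CPM was 0.07, and 31 genes had a range of over 2-fold. Across these genes, Pearson's r of log2 CPM was 0.998 between replicates 1 and 2, 0.993 between 1 and 3, and 0.992 between 2 and 3, as a description of genes of the same libraries. Of 1255 genes with a range of over 1.2-fold, replicate 3 was farthest from the median in 953 (75.9%), replicate 1 in 146, and replicate 2 in 156. Replicate 3 was also the deepest library and had the lowest mitochondrial share, with 2.29% of counts against 2.77% and 3.13%, and the part of depth in this was not tested. Without replicate 3, the median SD of log2 CPM was 0.038. The biological coefficient of variation from edgeR was 0.0901 with all 3 replicates and 0.0382 without replicate 3.

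Of the 10 genes with the widest spread, 4 are annotated as pseudogenes. Gm28437, one of these pseudogenes, had 184, 46.6, and 952 CPM, and Gm28438 had 17.1, 8.85, and 88.5 CPM, both highest in replicate 3. Tpt1-ps3 had 90.2, 82.7, and 288 CPM, also highest there. Without replicate 3 the mean CPM was 115 for Gm28437, 12.98 for Gm28438, and 86.5 for Tpt1-ps3. Rpl36-ps12, Ly6e, Tpm3-rs7, Wdr89, Ftl1-ps1, and the protocadherin Pcdhgc4 were lowest in replicate 3, and Gm49369 was lowest in replicate 2. For 9 of the 10 genes replicate 3 was thus the one farthest from the others. Reads of such copies can be split between genes by the authors' counting, so that these levels are uncertain.

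The expression classes held in most cases in the other conditions, which were not compared by a test. Of the 11944 expressed genes, 11845 (99.2%) were also expressed after PDGF-AA treatment of scramble cells. With the Srsf3 shRNA, 11758 (98.4%) were expressed without the ligand and 11712 (98.1%) with it, and 11651 (97.5%) were expressed in all of the other conditions. Of the 34006 floor genes, 32166 (94.6%) were at the floor in all of the other conditions. Among 1007 listed genes, 41 were expressed in some conditions and not in others, with gains and losses counted together. The same count was not made over all genes, so that this number has no background to be read against. Some of the 41 lay near the minimum, such as Cd68 with a mean of 1.45 CPM at baseline and 1.11 CPM in untreated shSrsf3 cells. Lgr5, a Wnt pathway receptor, was the member of the 41 with the highest baseline level. It had 5.72, 6.098, and 6.25 CPM in the scramble -PDGF-AA samples and 0.158, 0.186, and 0.108 CPM in untreated shSrsf3 cells. Because the 41 genes were picked for a class that differs between conditions, the gap between these values follows from that choice and was not tested.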

How the data were processed

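Poly(A) RNA of 12 samples of iMEPM cells was sequenced. The deposited values are expected counts per gene, which the authors made by trimming with BBDuk, Salmon (version 1.4.0) on GENCODE M26 (GRCm39), and tximport, whose version and scaling are not given in the sources used here. Of the values in the 3 samples, 15.7% were not whole, and all were rounded. Gene counts summed to 39174723 to 59229106 per sample. CPM was computed per library total and TPM with GENCODE M39 canonical transcript lengths. Symbols of 50157 genes matched that annotation. Promoters are RefSeq windows of 300 bases. Genes were described in 33 lists and 36 symbol families. Named genes are the markers, the highest members by TPM, expressed members of short lists, and expected members that were low or absent, and some were named after their values were seen. The members and lists were chosen with earlier results of these data known. Replicates come from 1 line, so that SDs measure only the spread between these samples. The SD of log2 CPM used a pseudocount of 0.5, and variation was estimated with edgeR (4.0.16) and tested on simulated data. No comparison was tested. Alternatives were TMM and DESeq2 (1.42.0) scaling, totals without mitochondrial genes, other lengths, thresholds, and depth, and leaving out each replicate. Some genes of the lists are not reported here.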

Additional observations from a re-analysis of the deposited data

How the results depend on the processing

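No paired analysis was possible because the results describe 1 group and come from no test. In place of 11944 expressed genes, 12685 passed at 0.5 CPM, 11215 at 2 CPM, 11929 at 1 TPM, and 11935 with libraries thinned to the smallest total, and 11990 to 12056 passed when a replicate was left out. Floor genes numbered 28941 with a floor of 0 counts, 34477 after thinning, and 34288 to 34832 without a replicate. The mean CPM of Prrx1 was 527 with a total without mitochondrial genes, which raises all genes alike by construction. With the length of all exons, the mean TPM was 138 for Prrx1 and 172 for Twist1, so that orders between genes close in TPM depend on the length used. The median SD of log2 CPM ranged from 0.038 to 0.0704 and the coefficient of variation from 0.0382 to 0.108 when a replicate was left out, and both were lowest without replicate 3. The cause was not tested. Depth limits genes of a few counts.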
